A study of Arabidopsis thaliana with 36 samples.

Results

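The 10 genes described here belong to the HY5 pathway of light and UV-B signalling, and they were followed in wounded hypocotyl segments of Arabidopsis thaliana with and without 2 cytokinin receptors. They were taken as a fixed list of loci, HY5 (AT5G11260), HYH (AT3G17609), ELIP1 (AT3G22840), ELIP2 (AT4G14690), BBX22 (AT1G78600), BBX31 (AT3G21890), UVR3 (AT3G15620), RUP1 (AT5G52250), RUP2 (AT5G23730) and SIG5 (AT5G24120), out of 32833 loci in the count tables. All 10 passed the filter on low counts, as did 19819 loci in all; a gene such as ELIP1 passed it through the groups in which it was high. The double mutant ahk3 ahk4, which lacks the cytokinin receptor kinases AHK3 and AHK4 and whose alleles the labels do not give, was compared with wild-type Col-0 (WT). Seedlings of both genotypes were stratified for 3 days, germinated overnight in continuous light and kept for 5 days in low light. They were then cut above the junction of root and shoot, and segments of 2-3 mm were taken from the basal and from the medial hypocotyl at 0, 8 and 16 h after wounding. That makes 12 groups of 3 libraries each, 36 in all, of ahk3 ahk4 basal, ahk3 ahk4 medial, WT basal and WT medial tissue at the 3 times. The labels number the replicates as "biol rep" 1 to 3 and do not say how many seedlings each holds. Uncut segments at 8 or 16 h are not among the samples analysed here, and no light treatment was compared. Excision, handling, age, time of day and any change of light after the cut therefore cannot be told apart, and the name "light-induced" for these genes is background that these samples do not test.

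HY5 and its homologue HYH are bZIP transcription factors that bind DNA at motifs with an ACGT core, such as the G-box CACGTG, and promote photomorphogenesis. In darkness the COP1-SPA ubiquitin ligase and DET1 keep HY5 protein low, and light acting through phytochromes, cryptochromes and, for UV-B, the receptor UVR8 lifts that block, so HY5 is regulated at the protein as well as the transcript level. Among the genes downstream, ELIP1 and ELIP2 encode early light-inducible proteins of the thylakoid that protect against photo-oxidative stress. UVR3 encodes the photolyase that repairs 6-4 photoproducts, and SIG5 encodes a sigma factor that directs the plastid RNA polymerase to certain promoters, among them that of psbD. BBX22 (also LZF1) is a B-box protein that acts with HY5, BBX31 is a B-box protein with roles in UV-B responses, and RUP1 and RUP2 are WD40-repeat proteins that return UVR8 to its inactive dimer and so form a negative feedback.

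The sequences below are the upstream regions of the 3 members whose levels moved most alike, with the ACGT core in capitals, because that core is the element HY5 and HYH are known to bind. They are the 250 bases before the annotated gene start, 5′ to 3′ on the gene's strand, from the RefSeq genome TAIR10.1 by locus tag; the count tables hold no coordinates and name no build. ELIP1 is from chr3:8085670-8085919 on the minus strand, ELIP2 from chr4:8417992-8418241 on the plus strand and HYH from chr3:6023594-6023843 on the plus strand.
ELIP1: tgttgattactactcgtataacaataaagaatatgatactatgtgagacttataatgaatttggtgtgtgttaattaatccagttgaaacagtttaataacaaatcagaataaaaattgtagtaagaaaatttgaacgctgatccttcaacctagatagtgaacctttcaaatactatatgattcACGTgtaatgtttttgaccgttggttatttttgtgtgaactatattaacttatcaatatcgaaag
ELIP2: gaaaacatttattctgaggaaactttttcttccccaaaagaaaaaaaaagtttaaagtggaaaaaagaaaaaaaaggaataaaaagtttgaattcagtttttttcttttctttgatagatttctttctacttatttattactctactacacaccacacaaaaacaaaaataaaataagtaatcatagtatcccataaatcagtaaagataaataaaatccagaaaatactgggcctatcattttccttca
HYH: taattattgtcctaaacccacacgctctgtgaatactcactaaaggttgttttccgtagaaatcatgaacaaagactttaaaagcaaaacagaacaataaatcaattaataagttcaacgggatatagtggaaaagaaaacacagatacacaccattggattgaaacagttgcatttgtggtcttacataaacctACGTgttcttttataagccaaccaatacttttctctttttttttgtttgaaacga
The ELIP1 core lies 65 bases before the start within the G-box CACGTG, the HYH core lies 55 bases before it within TACGTG, and the ELIP2 window holds no ACGT. In each of 5 other members the window held 1 core, shown with the bases around it.
HY5: ctaaaatccacccACGTtcca
RUP1: gcaagtaccaataACGTgaatgcatttcca
RUP2: caacatttagttaACGTcctttcgcctact
SIG5: gggtagttcggaaACGTattgtctagctag
UVR3: agatatgttcaacACGTataaagattaaaa
These lie at chr5:3595074-3595094 (minus strand) for HY5, chr5:21216568-21216597 (plus) for RUP1, chr5:8004928-8004957 (plus) for RUP2, chr5:8160424-8160453 (minus) for SIG5 and chr3:5296885-5296914 (minus) for UVR3, with the core starting 8, 191, 156, 97 and 90 bases before the gene start. BBX22 and BBX31 had no ACGT in their windows. ACGT, a palindrome that reads the same on both strands and is contained in the longer motifs, was thus present in 7 of 10 members, against 44.08% of the 27443 windows of that length before protein-coding genes. The G-box CACGTG was present in 1 of 10 members, ELIP1, against 6.49% of windows. Searched on both strands, GACGTG was in none of the 10 and in 5.89% of windows. GACGTC was in none and in 2.27%, and TACGTA was in none and in 4.94%. A match is a run of letters and not a measured binding site, and a missing match says only that the letters are not in this window.

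The libraries were made with QuantSeq, a kit that reads the 3′ ends of polyadenylated transcripts, and the values below are CPM, read counts scaled to library size after TMM normalisation. Reads assigned to genes numbered 6136167 to 13557332 per library. The genotype labels held for both receptors in all libraries. AHK3 lay between 1.33 and 8.71 CPM in the 18 ahk3 ahk4 libraries, against 43.9 to 164 CPM in the 18 WT libraries, and AHK4 between 0.0986 and 2.2 CPM, against 2.52 to 14.1 CPM. Root hair and root cap markers summed to at most 1.03 CPM in any library, with COBL9 at 0 throughout, whereas xylem markers summed to 9.65 to 99.2 CPM. Markers of 3 other cell types were lower at 8 h in WT basal segments, at 162 to 292 CPM for endodermis, 23.1 to 38.1 CPM for phloem and 43.8 to 77.4 CPM for epidermis, against 1495 to 1791, 146 to 192 and 185 to 258 CPM at 0 h. Of 3 genes each, 2 or 3 epidermis markers were called lower in all 8 comparisons with 0 h, 2 or 3 phloem markers in 7 (1 in ahk3 ahk4 medial segments at 16 h) and 2 or 3 endodermis markers in 6 (0 in medial segments of either genotype at 16 h). Of 3 xylem markers, 2 were called lower at 16 h against 0 h in every series. Markers of mesophyll of cotyledon or leaf went both ways. In WT basal segments they were at 35.0 to 52.6 CPM at 8 h against 326 to 367 CPM at 0 h. In medial segments at 16 h 2 of 3 were called higher and 0 lower in each genotype. They were there at 2942 to 4193 CPM in ahk3 ahk4 and 3340 to 3779 CPM in WT, against 426 to 516 and 536 to 709 CPM at 0 h. The part of these shifts in the time changes below was not tested. Replicates differed by more than sampling noise, the closest pair at a chi-square of 9.31 per degree of freedom. The share of reads that aligned at more than 1 place moved with the groups, most in ahk3 ahk4 basal segments, where it was 44.2% to 60.3% at 0 h, 10.5% to 20.4% at 8 h and 2.98% to 15.1% at 16 h. The longest run of bases shared by the annotated transcripts was 26 for ELIP1 and ELIP2, 17 for HY5 and HYH and 16 for RUP1 and RUP2, and no annotated gene overlapped any of the 10.

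HYH rose after excision in both genotypes and both regions, while HY5 moved little and passed the test only in the mutant. HYH held 11, 16.4 and 6.4 CPM at 0 h in ahk3 ahk4 basal segments, 121, 118 and 91.5 CPM at 8 h and 94.3, 182 and 125 CPM at 16 h. HYH in ahk3 ahk4 medial segments was at 11.7, 11.5 and 22.3 CPM at 0 h, 126, 120 and 73.1 CPM at 8 h and 128, 151 and 119 CPM at 16 h. All 12 mutant libraries taken after excision therefore lay above all 6 taken at 0 h. HYH in WT basal segments was at 12.3, 11.3 and 13 CPM at 0 h, 160, 156 and 105 CPM at 8 h and 100, 55.2 and 85.0 CPM at 16 h. HYH in WT medial segments was at 27.2, 25.7 and 14.0 CPM at 0 h, 120, 98.9 and 160 CPM at 8 h and 99.1, 120 and 96.0 CPM at 16 h. Here too no library at 8 or 16 h overlapped the 0 h libraries of its series. The log2 fold change (LFC) of HYH at 8 h against 0 h was 3.31 ± 0.33 (SE) in ahk3 ahk4 basal, 2.81 ± 0.32 in ahk3 ahk4 medial, 3.52 ± 0.33 in WT basal and 2.49 ± 0.32 in WT medial segments. At 16 h against 0 h it was 3.58 ± 0.34, 3.12 ± 0.33, 2.71 ± 0.32 and 2.23 ± 0.31 in the same order, and all 8 passed (edgeR quasi-likelihood test, highest Benjamini-Hochberg adjusted p = 4.43e-07). Between 8 and 16 h HYH did not pass in any of the 4 series, with LFC from -0.81 to 0.31.

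HY5 ranged only from 17.7 to 68.9 CPM over the 36 libraries. HY5 read 28.2, 25.8 and 37.6 CPM at 0 h in ahk3 ahk4 basal segments, 44.9, 66.9 and 45.9 CPM at 8 h and 59.4, 42.7 and 38.7 CPM at 16 h. In ahk3 ahk4 medial segments HY5 read 29.0, 24.6 and 17.7 CPM at 0 h, 68.9, 56.9 and 48.2 CPM at 8 h and 30.7, 25.3 and 33.2 CPM at 16 h. The medial 8 h libraries of the mutant stood above all its medial libraries at 0 and 16 h. HY5 read 30.9, 34.0 and 34.8 CPM at 0 h in WT basal segments, 42.9, 37.1 and 43.4 CPM at 8 h and 35.5, 27.8 and 24.2 CPM at 16 h. In WT medial segments it read 38.0, 39.3 and 41.2 CPM at 0 h, 55.6, 32.1 and 32.9 CPM at 8 h and 64.9, 45.5 and 28.5 CPM at 16 h. The WT medial times overlapped, and no WT time comparison of HY5 passed (LFC from -0.49 to 0.30). The mutant rise at 8 h was 1.29 ± 0.26 in medial (adjusted p = 0.00017) and 0.78 ± 0.26 in basal segments (adjusted p = 0.0144). In the medial segments HY5 fell again at 16 h against 8 h (LFC -0.96 ± 0.26, adjusted p = 0.0135). The basal rise at 8 h did not pass without ahk3 ahk4 basal 0 h replicate 1 (adjusted p = 0.0547), 0 h replicate 2 (0.0698) or 8 h replicate 2 (0.106). Nor did it pass with the share outside genes, that of reads assigned to no counted feature, as a covariate (0.141). The medial fall did not pass without ahk3 ahk4 medial 16 h replicate 2 (0.0769) or 8 h replicate 1 (0.0823), nor with that covariate (0.0655). A basal rise at 16 h of 0.62 ± 0.26 (adjusted p = 0.0487) was lost under 7 of the 9 other settings tried and without any 1 of 4 libraries, among them ahk3 ahk4 basal 16 h replicate 1 (adjusted p = 0.254).

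ELIP1 and ELIP2 had the widest range of the 10 genes, near 0 in every library at 0 h and far above it afterwards. ELIP1 held 0.622, 3.54 and 2.54 CPM at 0 h in ahk3 ahk4 basal segments, 732, 771 and 1002 CPM at 8 h and 570, 532 and 618 CPM at 16 h. ELIP1 in ahk3 ahk4 medial segments was at 1.45, 1.22 and 1.44 CPM at 0 h, 712, 1413 and 875 CPM at 8 h and 2687, 2470 and 2160 CPM at 16 h. The mutant series parted after 8 h, with medial libraries at 16 h above all others of the mutant. ELIP1 in WT basal segments was at 0.113, 0 and 0 CPM at 0 h, which is 1 read in all, then at 357, 415 and 510 CPM at 8 h and 412, 395 and 399 CPM at 16 h. ELIP1 in WT medial segments was at 0.118, 1.19 and 0 CPM at 0 h, 1017, 987 and 1249 CPM at 8 h and 2764, 2395 and 3402 CPM at 16 h. Medial libraries of both genotypes at 16 h lay above all those at 8 h, and WT basal libraries at 8 and 16 h overlapped.

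The ELIP1 rise at 8 h against 0 h was 8.60 ± 0.46 (LFC ± SE) in ahk3 ahk4 basal, 9.50 ± 0.48 in ahk3 ahk4 medial and 11.11 ± 0.53 in WT medial segments. At 16 h against 0 h the rise was 8.06 ± 0.45, 10.79 ± 0.50 and 12.50 ± 0.55 (highest adjusted p = 8.22e-16). The WT medial values rest on 12 reads at 0 h, 11 of them in replicate 2, and without that library they were 13.76 and 15.16. In WT basal segments, where the fold rests on 1 read at 0 h, ELIP1 was 13162 times higher by summed counts at 8 h (95% counting interval 2362 to 519937) and 12209 times at 16 h (2191 to 482287). From 8 to 16 h ELIP1 rose in medial segments, by 1.29 ± 0.32 in ahk3 ahk4 (adjusted p = 0.00829) and 1.40 ± 0.32 in WT (adjusted p = 0.00236). The mutant value did not pass without ahk3 ahk4 medial 8 h replicate 1 (adjusted p = 0.0619). In basal segments that step was -0.54 in ahk3 ahk4 and -0.09 in WT, and neither passed.

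ELIP2 was likewise near 0 at 0 h and higher in every series afterwards. ELIP2 held 1.04, 2.09 and 0.203 CPM at 0 h in ahk3 ahk4 basal segments, 168, 279 and 183 CPM at 8 h and 158, 126 and 131 CPM at 16 h. ELIP2 in ahk3 ahk4 medial segments was at 2.01, 0.203 and 0 CPM at 0 h, 353, 322 and 144 CPM at 8 h and 398, 342 and 279 CPM at 16 h. No mutant library after excision overlapped one at 0 h. ELIP2 in WT basal segments was at 0.677, 1.89 and 0.175 CPM at 0 h, 173, 178 and 113 CPM at 8 h and 67.6, 42.9 and 46.0 CPM at 16 h. ELIP2 in WT medial segments was at 0.947, 0.54 and 0 CPM at 0 h, 252, 181 and 187 CPM at 8 h and 477, 481 and 432 CPM at 16 h. By 16 h the WT basal libraries lay below, and the WT medial libraries above, those of the same region at 8 h. The 8 LFC values against 0 h ran from 5.84 ± 0.65 in WT basal segments at 16 h to 9.75 ± 0.76 in WT medial segments at 16 h, and all passed (highest adjusted p = 2.73e-08). The 0 h level rests on few reads. In ahk3 ahk4 medial segments replicate 1 held 18 of 20, without which the LFC was 11.26 at 8 h and 11.58 at 16 h, against 8.59 and 8.90 with it. In WT basal segments replicate 2 held 19 of 27, without which it was 8.54 and 6.96, against 7.41 and 5.84. ELIP2 in WT basal segments fell at 16 h against 8 h (LFC -1.57 ± 0.49, adjusted p = 0.0488), a call that was lost without any 1 of the 6 libraries compared (adjusted p from 0.0579 to 0.214). In WT medial segments the step was 1.17 ± 0.48 (adjusted p = 0.0873), and it did not pass.

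BBX22 peaked at 8 h in every series, and at 16 h it was under its 0 h level in 3 of 4 series. BBX22 held 59.4, 50.4 and 52.1 CPM at 0 h in ahk3 ahk4 basal segments, 168, 149 and 202 CPM at 8 h and 36.1, 32.3 and 36.4 CPM at 16 h. BBX22 in ahk3 ahk4 medial segments was at 54.6, 41.1 and 46.5 CPM at 0 h, 84.9, 104 and 113 CPM at 8 h and 31.3, 35.7 and 27.6 CPM at 16 h. In the mutant the 16 h libraries lay below all 0 h libraries of the same region. BBX22 in WT basal segments was at 38.1, 34.2 and 31.3 CPM at 0 h, 130, 153 and 179 CPM at 8 h and 33.5, 42.2 and 45.3 CPM at 16 h. BBX22 in WT medial segments was at 46.1, 34.9 and 51.9 CPM at 0 h, 122, 111 and 140 CPM at 8 h and 30.9, 24.4 and 23.2 CPM at 16 h. Only the WT basal series overlapped between 0 and 16 h. BBX22 rose at 8 h against 0 h by 1.68 ± 0.20 in ahk3 ahk4 basal, 1.08 ± 0.20 in ahk3 ahk4 medial, 2.16 ± 0.20 in WT basal and 1.49 ± 0.20 in WT medial segments (highest adjusted p = 3.39e-05). It fell at 16 h against 8 h with LFC of -2.31 ± 0.20, -1.67 ± 0.20, -1.93 ± 0.20 and -2.25 ± 0.20 in the same order (highest adjusted p = 3.5e-07). At 16 h against 0 h BBX22 was lower in 3 series, with LFC of -0.63 ± 0.20 in ahk3 ahk4 basal (adjusted p = 0.0087), -0.59 ± 0.20 in ahk3 ahk4 medial (adjusted p = 0.0185) and -0.76 ± 0.20 in WT medial segments (adjusted p = 0.00241). The ahk3 ahk4 medial value did not pass without ahk3 ahk4 medial 0 h replicate 1 (adjusted p = 0.102), 16 h replicate 1 (0.0535) or 16 h replicate 3 (0.0898). The ahk3 ahk4 basal value did not pass with either share of reads as a covariate (0.0907 and 0.123).

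**Figure D1:**
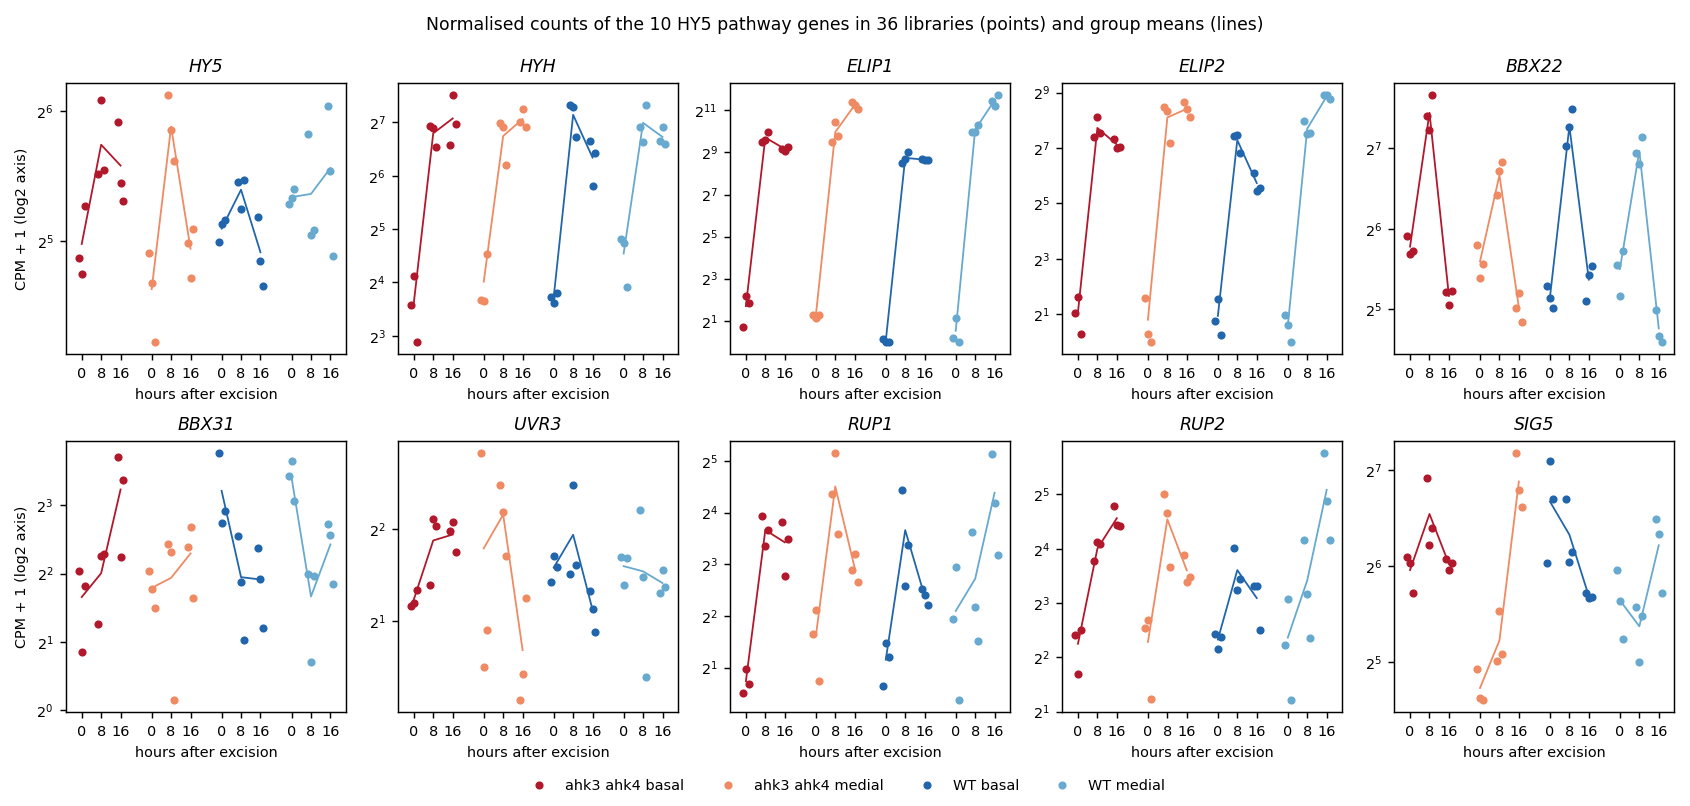
Level of each of the 10 genes (CPM + 1, log2 axis) against hours after excision; each point is 1 of 36 libraries and each line joins the means of the 3 libraries of a group, with ahk3 ahk4 basal, ahk3 ahk4 medial, WT basal and WT medial segments from left to right in every panel. ELIP1, ELIP2 and HYH stand apart from their 0 h libraries at both later times, BBX22 peaks at 8 h, and HY5 stays between 17.7 and 68.9 CPM.

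The other B-box member, BBX31, was measured at low counts, from 0.108 to 12.6 CPM, and did not share the BBX22 peak. At 0 h BBX31 averaged 2.15 ± 1.20 CPM in ahk3 ahk4 basal and 2.46 ± 0.65 CPM in ahk3 ahk4 medial segments, against 8.28 ± 3.80 CPM in WT basal and 9.58 ± 2.11 CPM in WT medial segments (SD, n = 3 each). The 0 h libraries of the genotypes did not overlap in either region, yet the differences did not pass (adjusted p = 0.141 in basal and 0.0865 in medial segments). BBX31 then rose in ahk3 ahk4 basal segments to 8.41 ± 4.30 CPM at 16 h (LFC 1.93 ± 0.69, adjusted p = 0.0204) and fell in WT medial segments to 2.17 ± 1.34 CPM at 8 h (LFC -2.15 ± 0.69, adjusted p = 0.0119). The rise was lost without ahk3 ahk4 basal 0 h replicate 2 (adjusted p = 0.0949) or 16 h replicate 1 (0.0918) and with either share of reads as a covariate (0.159 and 0.208). The fall was lost without WT medial 8 h replicate 2 (0.0759). In WT basal segments BBX31 did not pass at 8 h (LFC -1.54, adjusted p = 0.0684) or 16 h (-1.58, 0.062), but passed without WT basal 8 h replicate 1 (-2.15, 0.0338) and without WT basal 16 h replicate 1 (-2.04, 0.0497).

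RUP1 and RUP2, the repressors of UVR8, rose in 11 of 16 comparisons with 0 h and fell in none. RUP1 was at 0.415, 0.966 and 0.609 CPM at 0 h in ahk3 ahk4 basal segments, 14.2, 9.2 and 11.6 CPM at 8 h and 13.2, 5.83 and 10.2 CPM at 16 h. In ahk3 ahk4 medial segments RUP1 was at 2.12, 3.34 and 0.67 CPM at 0 h, 19.6, 34.6 and 11 CPM at 8 h and 6.37, 8.2 and 5.27 CPM at 16 h. The medial series of the mutant was highest at 8 h, and both mutant series lay above 0 h at both later times. RUP1 in WT basal segments was at 0.564, 1.79 and 1.31 CPM at 0 h, 20.6, 4.97 and 9.4 CPM at 8 h and 4.71, 4.28 and 3.65 CPM at 16 h. In WT medial segments RUP1 was at 2.84, 6.7 and 0.294 CPM at 0 h, 11.4, 3.48 and 1.86 CPM at 8 h and 34.4, 17.3 and 8.04 CPM at 16 h. The WT medial replicates spread widely and overlapped between 0 and 8 h and between 8 and 16 h. RUP1 passed with LFC of 4.17 ± 0.82 in ahk3 ahk4 basal (adjusted p = 0.00011), 3.41 ± 0.72 in ahk3 ahk4 medial (0.000329) and 3.22 ± 0.74 in WT basal segments at 8 h (0.000745). At 16 h it passed with 3.91 ± 0.82 in ahk3 ahk4 basal (0.000215) and 2.57 ± 0.69 in WT medial segments (0.00338). In ahk3 ahk4 medial and WT basal segments at 16 h it did not pass, with LFC of 1.69 ± 0.70 (adjusted p = 0.0597) and 1.76 ± 0.74 (adjusted p = 0.0593). Both passed in DESeq2, and the first also passed without ahk3 ahk4 medial 0 h replicate 2 (0.0417).

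RUP2, its close homologue, was at 3.76 ± 1.31 CPM in ahk3 ahk4 basal, 3.87 ± 2.21 CPM in ahk3 ahk4 medial, 4.02 ± 0.49 CPM in WT basal and 4.15 ± 3.09 CPM in WT medial segments at 0 h (SD, n = 3 each). At 8 h RUP2 was at 15 ± 2.1, 22.3 ± 9.9, 11.2 ± 3.5 and 9.68 ± 6.53 CPM in the same order, and at 16 h at 22.6 ± 3.6, 11.2 ± 2.3, 7.53 ± 2.47 and 32.9 ± 18.6 CPM. Its LFC at 8 h was 1.97 ± 0.51 in ahk3 ahk4 basal (adjusted p = 0.00203), 2.53 ± 0.51 in ahk3 ahk4 medial (0.000173) and 1.47 ± 0.51 in WT basal segments (0.0194). The 16 h values were 2.56 ± 0.52 in ahk3 ahk4 basal (0.000112), 1.53 ± 0.51 in ahk3 ahk4 medial (0.0168) and 2.96 ± 0.52 in WT medial segments (2.16e-05). The rise in WT basal segments at 8 h did not pass without WT basal 0 h replicate 2 (adjusted p = 0.0704) or 8 h replicate 1 (0.0923). The rise in ahk3 ahk4 medial segments at 16 h did not pass without ahk3 ahk4 medial 0 h replicate 3 (0.106) or 16 h replicate 1 (0.0658). In WT medial segments at 8 h RUP2 (LFC 1.19, adjusted p = 0.0595) passed without WT medial 0 h replicate 2 (0.00957) or 8 h replicate 3 (0.0185). From 8 to 16 h both RUP genes rose in WT medial segments, RUP1 by 1.85 ± 0.66 (adjusted p = 0.0477) and RUP2 by 1.77 ± 0.49 (adjusted p = 0.00967). Without WT medial 16 h replicate 1, the highest library of both genes there, these steps were 1.19 (adjusted p = 0.274) and 1.23 (adjusted p = 0.105). They also did not pass without WT medial 8 h replicate 2 (0.17 for RUP1 and 0.0518 for RUP2) or 8 h replicate 3 (0.187 and 0.0647), and the RUP1 step did not pass without 16 h replicate 2 (0.0736). In ahk3 ahk4 medial segments the step from 8 to 16 h was negative, -1.72 for RUP1 (adjusted p = 0.0858) and -0.997 for RUP2, and neither passed. The RUP1 fall there passed in DESeq2 and without ahk3 ahk4 medial 8 h replicate 3 (-2.03, 0.046).

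SIG5, the plastid sigma factor, had no common change after excision: it rose late in mutant medial segments and fell in WT basal segments. SIG5 held 67.3, 64.5 and 51.8 CPM at 0 h in ahk3 ahk4 basal segments, 120, 73.7 and 83.3 CPM at 8 h and 66.5, 61.2 and 64.3 CPM at 16 h. SIG5 in ahk3 ahk4 medial segments was at 29.5, 23.7 and 23.3 CPM at 0 h, 31.1, 45.2 and 32.8 CPM at 8 h and 144, 110 and 97.1 CPM at 16 h. The mutant medial libraries at 16 h stood above all other medial libraries of either genotype. SIG5 in WT basal segments was at 64.3, 136 and 103 CPM at 0 h, 103, 65 and 70.0 CPM at 8 h and 51.7, 49.8 and 50 CPM at 16 h. SIG5 in WT medial segments was at 61.3, 48.8 and 36.9 CPM at 0 h, 46.6, 31.0 and 43.6 CPM at 8 h and 88.7, 79.9 and 51.6 CPM at 16 h. WT basal libraries at 16 h lay below all WT basal libraries at 0 and 8 h. Against 0 h the LFC at 16 h was 2.20 ± 0.27 in ahk3 ahk4 medial (adjusted p = 2.79e-08) and -1.0 ± 0.26 in WT basal segments (adjusted p = 0.00202), and the other 6 comparisons with 0 h did not pass. Of these, ahk3 ahk4 basal segments at 8 h (0.59, adjusted p = 0.0581) passed without 8 h replicate 2 (0.035), and WT medial segments at 16 h (0.58, 0.0696) passed without 0 h replicate 1 (0.0368) or 16 h replicate 3 (0.0243). From 8 to 16 h SIG5 rose in medial segments, by 1.69 ± 0.26 in ahk3 ahk4 (adjusted p = 3.56e-05) and 0.86 ± 0.26 in WT (adjusted p = 0.0168). The WT step was lost without WT medial 16 h replicate 1 (0.099), 16 h replicate 2 (0.0611) or 8 h replicate 2 (0.106).

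UVR3, the 6-4 photolyase, was the least counted member, from 0.0981 to 6.13 CPM, and passed no comparison in WT. In ahk3 ahk4 medial segments UVR3 was at 6.13, 0.405 and 0.861 CPM at 0 h, 4.59, 3.56 and 2.27 CPM at 8 h and 0.0981, 0.337 and 1.37 CPM at 16 h. The 0 h libraries overlapped both later times, and those at 8 and 16 h did not overlap. UVR3 fell there at 16 h against 0 h (LFC -2.01 ± 0.79, adjusted p = 0.0452) and against 8 h (LFC -2.51 ± 0.79, adjusted p = 0.0344). Without ahk3 ahk4 medial 0 h replicate 1 the first value was -0.08 (adjusted p = 0.962). It was also lost without 16 h replicate 1 (0.194) or 16 h replicate 2 (0.153). The second was lost without 16 h replicate 1 (0.171), 16 h replicate 2 (0.133), 8 h replicate 1 (0.12) or 8 h replicate 2 (0.0618). The same 0 h library also set the 8 h value, which was 0.51 with it (adjusted p = 0.611) and 2.43 without it (adjusted p = 0.0188).

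**Figure D2:**
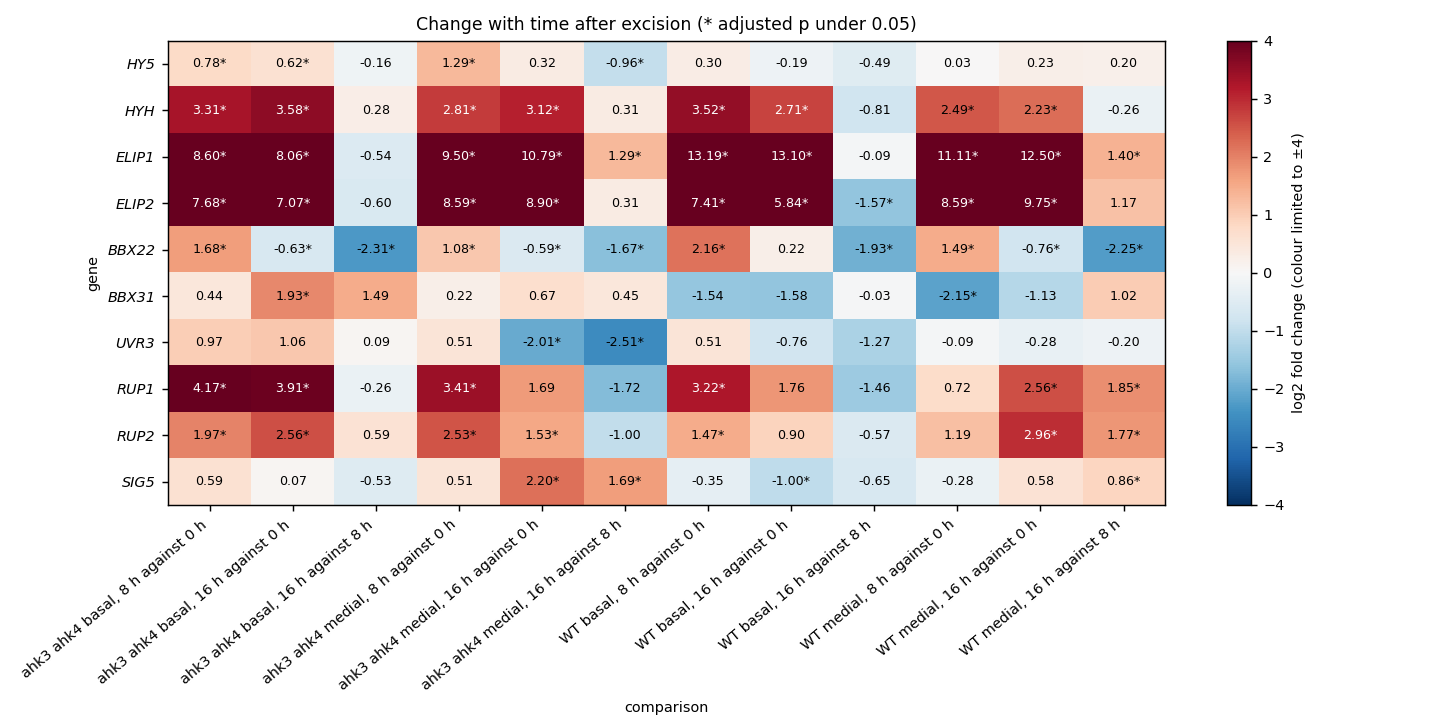
Log2 fold change of each gene (rows) in the 12 comparisons of time (columns), with colour limited to ±4 and an asterisk where the edgeR adjusted p was under 0.05. HYH, ELIP1 and ELIP2 are marked in all 8 comparisons with 0 h, and BBX22 is marked as lower in all 4 comparisons of 16 h with 8 h.

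Counted together, 7 of 10 genes were higher and 0 lower in ahk3 ahk4 basal segments at 8 h against 0 h, where 23.3% of all genes tested were higher and 19.7% lower. At 16 h in the same segments 7 were higher and 1, BBX22, was lower, against 24.7% and 22.2% of all genes. In ahk3 ahk4 medial segments 7 were higher and 0 lower at 8 h, against 20.7% and 17.3%, and 5 were higher and 2, BBX22 and UVR3, lower at 16 h, against 19.2% and 16.1%. WT basal segments had 6 higher and 0 lower at 8 h, against 20.7% and 19.1%, and 3 higher (HYH, ELIP1 and ELIP2) and 1 lower (SIG5) at 16 h, against 20% and 17.8%. WT medial segments had 4 higher and 1 lower (BBX31) at 8 h, against 20.6% and 19.4%, and 5 higher and 1 lower (BBX22) at 16 h, against 21.3% and 18%. The median LFC of the 10 genes lay between 0.56 and 2.25 in these 8 comparisons, and that of all genes between -0.03 and 0.05. The share of members called higher was above that of all genes in all 8, though in WT basal segments at 16 h only by 3 of 10 against 20%. The share called lower was under that of all genes in 7 and above it in 1, ahk3 ahk4 medial segments at 16 h. The 10 genes were chosen with earlier results of these data known, so these counts describe the list and do not test it. Between 16 and 8 h the genes called in either direction were 1 of 10 in ahk3 ahk4 basal (5.62% of all genes), 5 in ahk3 ahk4 medial (10.8%), 2 in WT basal (6.36%) and 5 in WT medial segments (18.4%).

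The series was designed to compare basal with medial tissue, and 2 members, SIG5 with 5 calls and ELIP1 with 4, were called by region in most of the 6 comparisons. SIG5 was higher in basal than in medial segments at 0 h, with LFC of 1.26 ± 0.26 in ahk3 ahk4 (adjusted p = 0.00082) and 1.04 ± 0.26 in WT (adjusted p = 0.0046). The same held at 8 h, with 1.34 ± 0.26 (adjusted p = 0.000314) and 0.98 ± 0.26 (adjusted p = 0.00733). At 16 h the sign was turned, with -0.87 ± 0.26 in ahk3 ahk4 (adjusted p = 0.0102) and -0.54 ± 0.26 in WT (adjusted p = 0.135, which did not pass). The WT calls were lost without WT basal 0 h replicate 2 (0.0727), WT basal 8 h replicate 1 (0.0797) or WT medial 8 h replicate 2 (0.0633). The mutant call at 16 h was lost without ahk3 ahk4 medial 16 h replicate 1 (0.0827) or with the multi-aligned share (0.189) or the share outside genes (0.654) as a covariate. Tested directly, the basal minus medial difference of the 16 h change was -2.13 ± 0.37 in ahk3 ahk4 (adjusted p = 0.000103; 0.0829 with the share outside genes as a covariate) and -1.58 ± 0.36 in WT (adjusted p = 0.00365).

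The ELIP genes were lower in basal segments at 16 h. ELIP1 had an LFC of -2.09 ± 0.33 in ahk3 ahk4 (adjusted p = 1.32e-05) and -2.83 ± 0.34 in WT (adjusted p = 2.06e-07), while ELIP2 had one of -1.30 ± 0.48 in ahk3 ahk4 (adjusted p = 0.0444) and -3.15 ± 0.51 in WT (adjusted p = 5.82e-05). In neither genotype did the libraries of the regions overlap for either gene. The ELIP2 call in the mutant was lost without any 1 of the 6 libraries compared (adjusted p from 0.0592 to 0.133) and under 5 other settings. ELIP1 was already lower in WT basal segments at 8 h (-1.34 ± 0.32, adjusted p = 0.00329), where the mutant value of -0.26 did not pass. A WT difference at 0 h rested on 1 read in basal against 12 in medial libraries, a ratio by counts of 0.0672 (95% counting interval 0.00157 to 0.454). It was lost without WT medial 0 h replicate 2 (adjusted p = 0.848), WT basal 0 h replicate 2 (0.131) or WT basal 0 h replicate 3 (0.142). Markers of mesophyll of cotyledon or leaf (RBCS1A, CA1 and LHCB2.1), summed over 3 genes, moved with these differences at 16 h. In hypocotyl segments these genes are not read as a count of mesophyll cells. They were at 388 to 809 CPM in basal against 2942 to 4193 CPM in medial segments of ahk3 ahk4 at 16 h, and at 641 to 1297 against 3340 to 3779 CPM in WT, with all 3 called lower in basal segments of both genotypes. In ahk3 ahk4 at 8 h all 3 were also lower in basal segments, at 101 to 148 against 841 to 1131 CPM, where ELIP1 did not pass. Endodermis markers moved by region as well, at 67.8 to 81.0 against 1090 to 1354 CPM in ahk3 ahk4 and 118 to 190 against 1598 to 2065 CPM in WT at 16 h, and so did epidermis markers, at 42.7 to 65.5 against 156 to 188 CPM and 30.9 to 46.6 against 213 to 227 CPM. The part of these shifts in the ELIP differences was not tested, and in these bulk samples fewer cells of a type and less RNA per cell cannot be told apart.

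The RUP genes were lower in basal segments of WT at 16 h, RUP1 by an LFC of -2.24 ± 0.67 (adjusted p = 0.0165) and RUP2 by -2.13 ± 0.49 (adjusted p = 0.002). In ahk3 ahk4 the values were 0.56 and 1.02, and neither passed. The RUP1 call was lost without WT medial 16 h replicate 1 (0.12), WT basal 16 h replicate 2 (0.0565) or WT basal 16 h replicate 3 (0.0666). BBX22 was higher in basal segments of ahk3 ahk4 at 8 h (0.78 ± 0.20, adjusted p = 0.00518) and of WT at 16 h (0.62 ± 0.20, adjusted p = 0.022). The first was lost when only the compared groups were fitted (0.175). The second was lost without any 1 of 4 libraries, WT basal 16 h replicates 2 and 3 and WT medial 16 h replicates 2 and 3 (adjusted p from 0.0704 to 0.103). UVR3 was higher in basal segments of ahk3 ahk4 at 16 h (2.22 ± 0.79, adjusted p = 0.0333), a call lost without either of the first 2 replicates of either region (adjusted p from 0.0706 to 0.167) and with the multi-aligned share (0.179) or the share outside genes (0.334) as a covariate. HY5 did not pass by region at 16 h, with 0.66 in ahk3 ahk4 (adjusted p = 0.0567; 0.0373 without ahk3 ahk4 basal 16 h replicate 3) and -0.67 in WT (0.0635; 0.0161 without WT medial 16 h replicate 3 and 0.0497 without WT basal 16 h replicate 1). HYH in WT at 0 h did not pass by region (-0.87, adjusted p = 0.0604), but did without WT medial 0 h replicate 3 (-1.11, 0.0244). DESeq2 called HYH there, and HY5 in WT at 16 h. In all, genes called by region were 1 of 10 at 0 h (12.4% of all genes), 2 at 8 h (13.2%) and 4 at 16 h (26.6%) in ahk3 ahk4, and 2 at 0 h (12.5%), 2 at 8 h (14.1%) and 5 at 16 h (20.8%) in WT. The counts at 0 and 8 h are thus near the share of all genes.

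**Figure D3:**
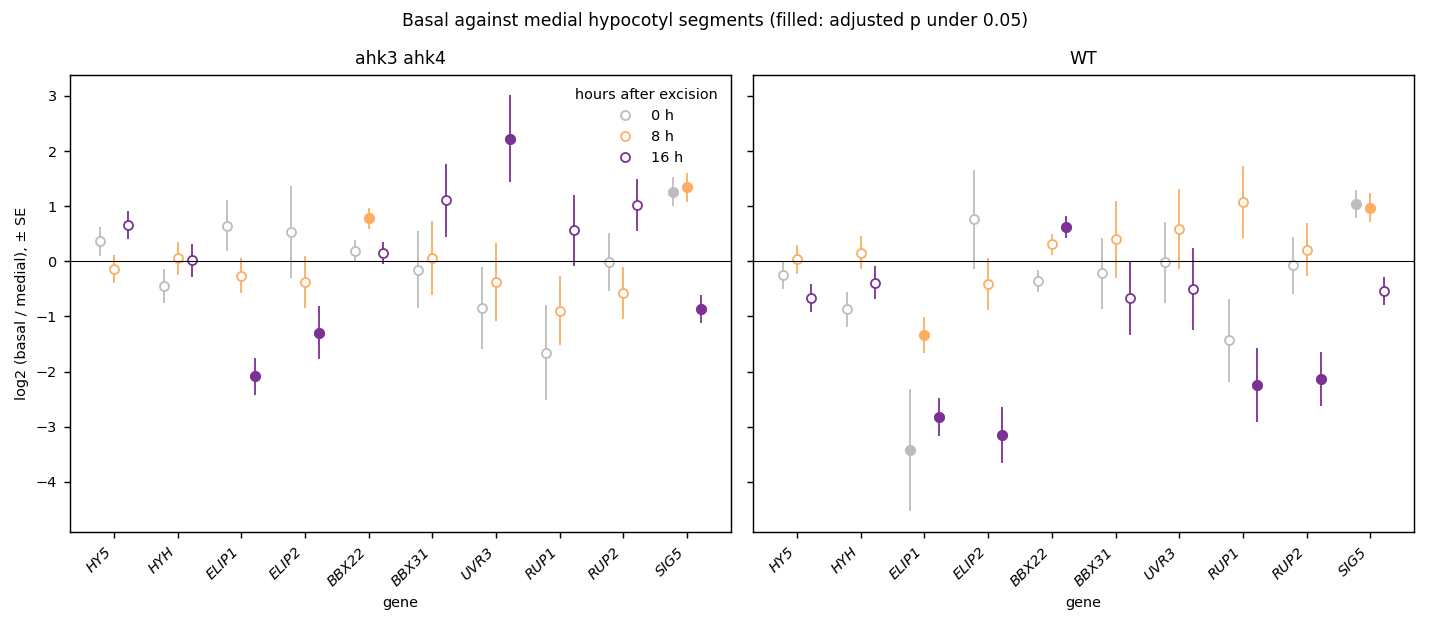
Log2 ratio of basal over medial segments (± SE) for each gene at 0, 8 and 16 h, in ahk3 ahk4 (left) and WT (right); filled points had an edgeR adjusted p under 0.05. SIG5 lies above 0 at 0 and 8 h and below it at 16 h in both genotypes. ELIP2 is lowest at 16 h in both, and ELIP1 at 16 h in ahk3 ahk4 and at 0 h in WT, where the value rests on 1 read against 12.

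Interactions of region with time were called for 3 of 10 genes at 16 h in ahk3 ahk4 (17% of all genes) and 3 in WT (10.1%), and for 0 at 8 h in ahk3 ahk4 (4.67%) and in WT (6.13%). Besides SIG5, ELIP1 gained less in basal than in medial segments of ahk3 ahk4 by 16 h (-2.73 ± 0.56, adjusted p = 0.000962), and ELIP2 did so in WT (-3.91 ± 1.02, adjusted p = 0.0124; 0.198 without WT basal 0 h replicate 2). ELIP2 in ahk3 ahk4 did not pass (-1.83, adjusted p = 0.203), but did without ahk3 ahk4 medial 0 h replicate 1 (-4.50, 0.00947). RUP2 in WT did not pass at 16 h (-2.06, adjusted p = 0.059). It passed in DESeq2 and without WT medial 0 h replicate 2 (-2.79, 0.0149) or 16 h replicate 3 (-2.37, 0.0329). BBX22 was relatively higher in WT basal segments (0.98 ± 0.28, adjusted p = 0.0194) and UVR3 in ahk3 ahk4 basal segments (3.07 ± 1.08, adjusted p = 0.0456). Both calls were lost without any 1 of several libraries, 5 for BBX22 (adjusted p from 0.0508 to 0.0677) and 8 for UVR3 (0.0613 to 0.51). At 8 h edgeR had 1 member at an unadjusted p under 0.05 in ahk3 ahk4 and 3 in WT, and DESeq2 called 0 in both. The share of all genes under that unadjusted threshold was not counted, so these counts show no excess or lack.

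In each comparison of the mutant with WT, edgeR called 0 or 1 of the 10 genes. Cell type markers differed too. In basal segments at 0 h, 2 of 3 endodermis, 2 of 3 xylem and 1 of 3 mesophyll markers were lower in ahk3 ahk4, and 1 of 3 epidermis markers was higher. Endodermis markers summed there to 599 to 638 CPM, against 1495 to 1791 CPM in WT. Fewer markers were called in basal segments at 8 and 16 h, and none in medial segments. The part of these shifts in the genotype differences was not tested. ELIP1 was higher in ahk3 ahk4 than in WT basal segments at 0 h, with 53 reads in the 3 ahk3 ahk4 libraries against 1 read in the 3 WT libraries, a ratio of 62.7 (95% counting interval 10.8 to 2522; LFC 5.56 ± 0.84, adjusted p = 5.96e-05). SIG5 was lower in ahk3 ahk4 than in WT medial segments at 0 h (-0.94 ± 0.26, adjusted p = 0.0241). That call was lost without WT medial 0 h replicate 1 (0.157) or 2 (0.0572) or without ahk3 ahk4 medial 0 h replicate 2 (0.108) or 3 (0.0948). These are 1 of 10 genes in basal (3.08% of all genes) and 1 in medial segments (5.77%) at 0 h. At an unadjusted p under 0.05 edgeR had 4 members in each region at 0 h. The share of all genes under that unadjusted threshold was not counted, here or at the later times. DESeq2 called 2 in each at 0 h, BBX22 and ELIP1 in basal and BBX31 and SIG5 in medial segments. BBX22 was at 54.0 ± 4.8 CPM in ahk3 ahk4 basal against 34.6 ± 3.4 CPM in WT basal segments at 0 h (SD, n = 3 each), which edgeR did not call. At 8 h and 16 h edgeR called 0 members in basal (0.293% and 4.95% of all genes) and 0 in medial segments (2.26% and 3.32%). At an unadjusted p under 0.05 edgeR had 1 and 5 members in basal and 3 and 4 in medial segments at those times. These unadjusted counts cannot be set against the shares of all genes given here, which are for adjusted p. DESeq2 called 1 in each of the 4 comparisons: ELIP1 in basal segments at 8 h, RUP1 in medial segments at 8 h and RUP2 in both regions at 16 h. For RUP2 at 16 h the edgeR LFC was 1.59 ± 0.49 in basal (adjusted p = 0.0508) and -1.56 ± 0.48 in medial segments (adjusted p = 0.0636), so the sign differed by region. RUP1 in medial segments at 8 h (1.98 ± 0.66, adjusted p = 0.102) passed without WT medial 8 h replicate 1 (3.02, 0.0248) or ahk3 ahk4 medial 8 h replicate 3 (2.29, 0.0434), and RUP2 there (1.21 ± 0.48, 0.171) without WT medial 8 h replicate 1 (1.87, 0.0453).

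Whether the change after excision differed by genotype was tested as an interaction. In basal segments it called 1 of 10 genes at 8 h (0.833% of all genes) and 2 at 16 h (2.4%). In medial segments it called 1 at 8 h (3.07%) and 1 at 16 h (4.49%). ELIP1 gained less in ahk3 ahk4 than in WT basal segments, by -4.59 ± 0.98 at 8 h (adjusted p = 0.012) and -5.05 ± 0.96 at 16 h (adjusted p = 0.00282). Both values rest on the 1 WT read at 0 h. The first was lost without WT basal 0 h replicate 2 (0.0577) or 3 (0.0705). After excision the genotypes did not differ past the threshold for ELIP1. It was at 835 ± 146 CPM in ahk3 ahk4 basal against 428 ± 77 CPM in WT basal segments at 8 h and 573 ± 43 against 402 ± 8.9 CPM at 16 h (SD, n = 3 each; LFC 0.97 and 0.51, adjusted p = 0.282 and 0.362). In medial segments ELIP1 did not pass at 0 h (LFC 1.49, adjusted p = 0.141) or in either interaction. Without WT medial 0 h replicate 2, which held most of its WT reads, it passed, with 4.14 at 0 h (0.00407), -4.26 for the interaction at 8 h (0.011) and -4.37 at 16 h (0.00581). BBX31 changed by 3.51 ± 0.96 more in ahk3 ahk4 basal segments at 16 h (adjusted p = 0.0425), lost without any 1 of 10 libraries (adjusted p from 0.0502 to 0.125). HY5 rose by 1.26 ± 0.37 more in ahk3 ahk4 medial segments at 8 h (adjusted p = 0.0496), lost without any 1 of 9 libraries (0.0619 to 0.15). The HY5 call was also lost with upper-quartile factors or with only the compared groups fitted. SIG5 rose by 1.62 ± 0.36 more in ahk3 ahk4 medial segments at 16 h (adjusted p = 0.00803). This call held without each of the 12 libraries it compares and under each of the 9 other settings.

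The rest of the pathway was taken as 6 lists, also chosen with earlier results of these data known. Their counts describe the lists and do not test them. Of these lists, the other targets moved most uniformly. The 9 other known HY5 or UV-B targets were the flavonoid enzymes TT4, TT5, F3H and FLS1, their regulators MYB12 and MYB111, the photolyases PHR1 and CRY3 and the glutathione peroxidase GPX7. All 9 were higher in all 8 comparisons with 0 h. Their medians ran from 4.85 to 7.50 on the log2 scale (4.81 to 7.50 with genes at 0 set at a floor of 3 counts over the group) against -0.03 to 0.05 over all genes. TT4, chalcone synthase, lay under 1 CPM in all libraries at 0 h. It averaged 1584 ± 346 CPM in ahk3 ahk4 basal, 1236 ± 208 CPM in ahk3 ahk4 medial, 2095 ± 383 CPM in WT basal and 1807 ± 441 CPM in WT medial segments at 8 h (SD, n = 3 each). MYB111, an activator of flavonol synthesis, had no read in basal segments of either genotype at 0 h. It averaged 24.5 ± 1.6 CPM in ahk3 ahk4 and 26.2 ± 13.3 CPM in WT basal segments at 8 h, and was at 2.92 ± 1.45 and 2.00 ± 0.79 CPM at 16 h. Of 7 light-harvesting-like and photoprotection genes, 5 to 7 were higher and 0 lower in each comparison with 0 h, against 19.2% to 24.7% of all genes higher and 16.1% to 22.2% lower. PSBS, the sensor of non-photochemical quenching, rose by 2.79 ± 0.30 to 6.10 ± 0.39. OHP1, a protein of photosystem assembly, rose by 0.78 ± 0.28 to 2.18 ± 0.29 in the 7 comparisons it passed. Of the 5 other plastid sigma factors, SIG6, which rose in all 8 comparisons (LFC from 1.02 ± 0.31 to 2.11 ± 0.31), and SIG2, which rose by 0.90 ± 0.27 to 1.71 ± 0.27 in the 5 it passed, were among the 3 or 4 that rose in each medial comparison. In basal segments 1 to 3 rose and 0 to 2 fell, against the same shares of all genes.

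Of 8 photoreceptor genes, which act upstream of HY5, 1 to 5 were lower and 0 to 2 higher in each comparison with 0 h. Of all genes, 16.1% to 22.2% were lower and 19.2% to 24.7% higher in these comparisons. The lower calls were mostly those of PHYA, CRY1 and CRY2. PHYA, the far-red sensor, fell in all 8 comparisons with 0 h (LFC from -3.08 ± 0.28 to -1.46 ± 0.26). CRY1, a blue-light receptor, fell in 7. It was at 10.6 ± 2.6 CPM in ahk3 ahk4 basal and 9.71 ± 1.41 CPM in WT basal segments at 8 h, against 81.3 ± 11.6 and 85.9 ± 4.8 CPM at 0 h (SD, n = 3 each). PHYB and PHYD were the ones most often higher. Of the 9 COP1-SPA and DET1 repressor genes 0 to 3 were lower and 0 to 2 higher in a comparison, where 16.1% to 22.2% of all genes were lower and 19.2% to 24.7% higher. SPA1 fell in 5 comparisons, by at most 0.94 ± 0.20 on the log2 scale in WT medial segments at 16 h. SPA3 rose by 1.45 ± 0.41 in ahk3 ahk4 medial segments at 16 h and fell in WT basal segments at 8 h (LFC -1.11 ± 0.41). Among 8 other B-box genes tested (BBX23 was not), 1 to 3 were higher and 2 to 4 lower in a comparison. Of all genes 19.2% to 24.7% were higher and 16.1% to 22.2% lower, so the higher calls are near the share of all genes. BBX21, an activator of HY5, fell in all 8 (LFC from -1.66 ± 0.24 to -0.60 ± 0.23), whereas BBX32 rose in 7, by 2.26 ± 0.66 to 3.88 ± 0.77, and BBX25 rose in 5, by 0.69 ± 0.28 to 1.78 ± 0.28. BBX28 was called lower at 8 h in every series. BBX21, BBX25, BBX28, BBX32 and CRY2 were named after their values were seen. BBX24, a repressor of HY5 action, fell in 7 comparisons (LFC from -1.33 ± 0.18 to -0.56 ± 0.17). BBX30 fell in WT at 8 h in both regions (LFC -1.94 ± 0.57 in basal and -2.79 ± 0.60 in medial segments). It rose by 2.06 ± 0.52 to 2.62 ± 0.54 at 16 h in 3 series.

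**Figure D4:**
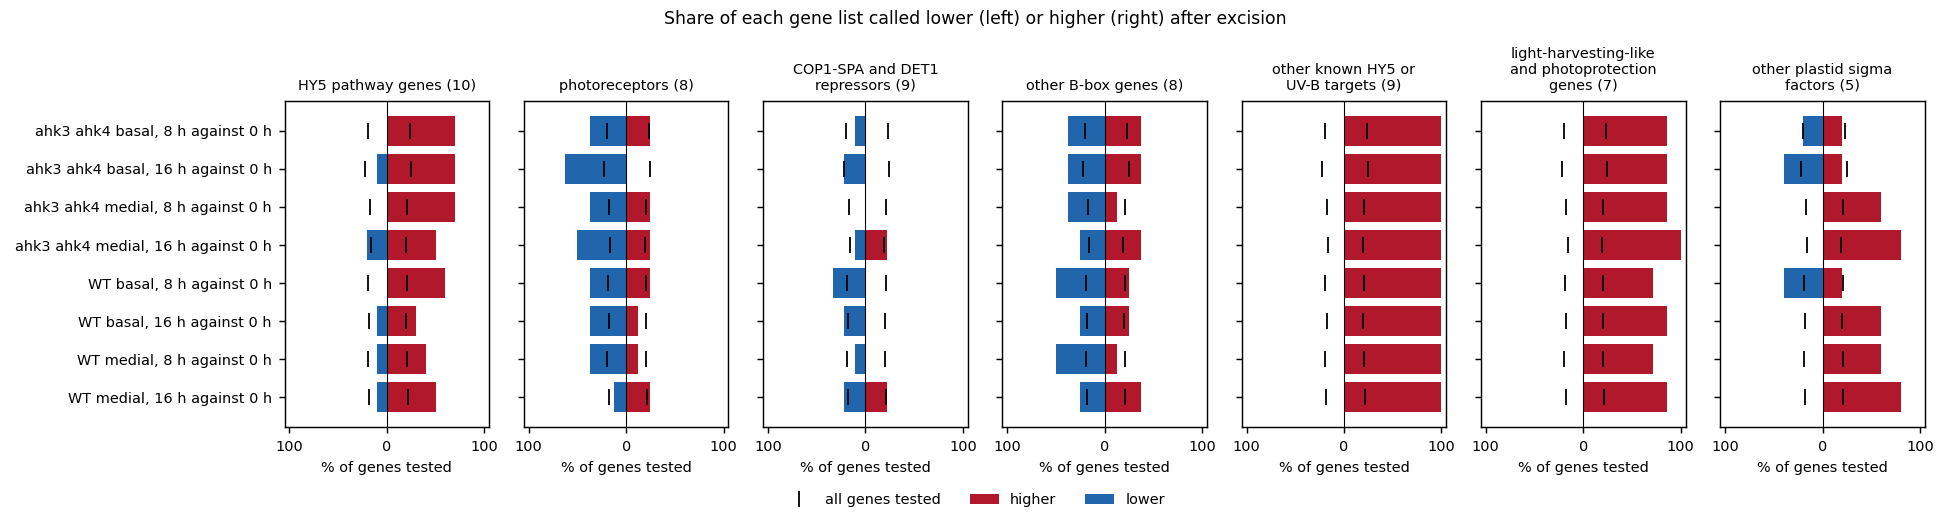
Share of the genes tested in each list that were called higher (right of 0) or lower (left of 0) in each comparison with 0 h, with ticks for the share of all 19819 genes tested; the number of genes tested stands in each title. All 9 other HY5 or UV-B targets are higher in every comparison, and of the 9 repressors 0 to 3 are lower and 0 to 2 higher.

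Over the 12 group means, measured as Pearson's r of log2(CPM + 1), the patterns of ELIP1 and ELIP2 were alike at r = 0.991, HYH and ELIP2 at 0.962, HYH and ELIP1 at 0.957 and RUP1 and RUP2 at 0.932. HY5 was less like its homologue HYH (0.569) than like RUP1 (0.775) and RUP2 (0.746), and SIG5 had no r above 0.325 with another member. These values describe 12 groups that share the same time course. Among replicates of 1 group, genotype, region and time are constant. Over 36 libraries, the deviations from the group mean gave the highest r among pairs of members for RUP1 and RUP2 (0.801, Spearman's rho 0.625). Next were HY5 and RUP2 (0.705, rho 0.704) and RUP1 and SIG5 (0.617, rho 0.681). The lowest was -0.335 for HYH and BBX22, and ELIP1 and ELIP2 gave 0.077. The SIG5 deviations also gave 0.476 with the share outside genes and 0.347 with the multi-aligned share. For RUP1 these values were 0.346 and 0.321. Of the 15569 other genes ranked, the nearest with a symbol of its own was F3H, flavanone 3-hydroxylase, for HYH (r = 0.986), PMSR4 for ELIP1 (0.985), CXE13 (0.99) and BCAT3 (0.986) for ELIP2. Those of the others were KIN1 (0.948) and EIF4A-III (0.915) for BBX22, RHL41 for BBX31 (0.84), BLI for UVR3 (0.873), PDX1.1 for RUP1 (0.967), FADA for RUP2 (0.959) and HDA05 for SIG5 (0.851). The 3 nearest of HY5 had locus names only, the first being AT1G78790 (r = 0.945). Over the 36 libraries some of these were far less alike, with r = 0.394 for AT1G78790 and HY5 (rank 2096), 0.426 for BLI and UVR3 (rank 329) and 0.439 for HDA05 and SIG5 (rank 275).

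For every member, most groups next to each other in the order of the 12 group means overlapped in their libraries. The groups were sorted by these same means, and such pairs were not counted over all genes tested. The counts for that order therefore describe these members only and do not show whether any of them is unusual. Of the 11 pairs of groups next to each other in that order, ELIP1 had 5 whose libraries did not overlap, ELIP2 4, SIG5 2, and HY5, HYH, BBX22 and BBX31 1 each, while UVR3, RUP1 and RUP2 had 0. For ELIP1 the order ran from WT medial 16 h (2854 ± 510 CPM) and ahk3 ahk4 medial 16 h (2439 ± 265 CPM), which overlapped, to WT basal 0 h (0.0376 ± 0.0651 CPM; SD, n = 3 each). For HYH the 1 gap separated all 8 groups after excision, the lowest at 80.1 ± 22.9 CPM, from all 4 groups at 0 h, the highest at 22.3 ± 7.3 CPM. For BBX22 it separated the 4 groups at 8 h, the lowest at 101 ± 14 CPM, from the other 8, the highest at 54.0 ± 4.8 CPM.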

How the data were processed

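The authors deposited whole-number read counts per locus, 1 table for each of 36 QuantSeq 3′ libraries. Per the submitters' processing notes the tools included HTSeq and DESeq2. Aligner, genome build, annotation and strand setting were not given in the sources used here. The 5 lines that name no gene, which held 4.594% to 62.196% of the reads of a library, were left out of library sizes and tests. Of the 32833 loci, 32548 were found in the RefSeq table used for symbols.

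Genes were filtered with filterByExpr over the 12 groups, scaled by TMM and fitted together with a robust quasi-likelihood model in edgeR 4.0.16 (R 4.3.3), with 24 residual degrees of freedom. From this fit came 24 comparisons of 2 groups and 8 interactions, with Benjamini-Hochberg adjustment over all 19819 genes tested and a threshold of 0.05. CPM are counts over TMM-scaled library sizes, and standard errors are the absolute log2 fold change over the square root of F. Counting intervals are exact at 95% and, like the floor of 3 counts, cover counting error only. The scripts were tested on simulated data. Tables were made in Python 3.11.15 with pandas 2.3.3 and scipy 1.17.1.

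The 10 genes and the lists were chosen with earlier results of these data known. Named genes were all 10 members, the 2 genes of each of 6 pathway lists called in most of the 24 comparisons (or any needed to describe a small count), and the 3 genes nearest to each member by Pearson's r of log2(CPM + 1) over 12 group means, among genes that reached 5 CPM. Alternatives were DESeq2 1.42.0, RLE and upper-quartile factors, no filter, a filter of 10 CPM in 3 libraries, only the compared groups, the replicate number as a block, 2 read shares as covariates and leaving out each library.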

Additional observations from a re-analysis of the deposited data

Results flagged for a closer look

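The interactions listed here are those in which the response of a gene differed between genotypes or regions past the threshold of edgeR's quasi-likelihood test; with 3 libraries a group, no single library was tested as an outlier. Between genotypes, ahk3 ahk4 minus WT, the change of ELIP1 in basal segments differed by -4.594 at 8 h (adjusted p = 0.012) and -5.046 at 16 h (adjusted p = 0.00282) on the log2 scale, with 1 WT read at 0 h. BBX31 in basal segments differed by 3.506 at 16 h (adjusted p = 0.0425), HY5 in medial segments by 1.263 at 8 h (adjusted p = 0.0496) and SIG5 in medial segments by 1.618 at 16 h (adjusted p = 0.00803).

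Between regions, basal minus medial, the 16 h change in ahk3 ahk4 differed by -2.733 for ELIP1 (adjusted p = 0.000962), 3.069 for UVR3 (adjusted p = 0.0456) and -2.134 for SIG5 (adjusted p = 0.000103). In WT it differed by -3.914 for ELIP2 (adjusted p = 0.0124), 0.98 for BBX22 (adjusted p = 0.0194) and -1.581 for SIG5 (adjusted p = 0.00365). The libraries on which these calls rest stand beside them in the results. The settings stand partly there and partly below, where they are given as counts of members.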

How the results depend on the processing

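No member changed direction while called under any alternative run. Of 320 member results, DESeq2 lost 3 calls and gained 15, RLE factors lost 1 and gained 1, upper-quartile factors lost 5 and gained 1, no filter lost 8 and gained 1, the multi-aligned share lost 10 and gained 6 and the share outside genes lost 13 and gained 8; the stricter filter lost 0 and gained 5 of 288, and fitting only the compared groups lost 8 and gained 20 of 313. Replicate numbers do not pair the libraries here (correlations of same-numbered deviations from -0.275 to 0.351), and the replicate block lost 3 and gained 11 calls of 320, among them 2 members against 0 between genotypes in basal segments at 16 h and 1 against 0 in medial segments at 16 h. Members called moved as follows. For WT basal segments, 16 h against 0 h gave 7 with only the compared groups, against 4, and 16 h against 8 h gave 4 that way and 1 with upper-quartile factors, no filter or DESeq2, against 2. For ahk3 ahk4 basal segments at 16 h against 0 h, either covariate gave 5 against 8. By region in ahk3 ahk4, 8 h gave 1 with only the compared groups against 2, and 16 h gave 1 with either covariate against 4. Between genotypes, basal 0 h gave 2 against 1 with the stricter filter, the share outside genes, only the compared groups or DESeq2; basal 8 h 1 against 0 with DESeq2; basal 16 h 1 with RLE factors, the stricter filter or DESeq2 and 2 with only the compared groups, against 0; medial 0 h 2 against 1 with only the compared groups or DESeq2; medial 8 h 1 against 0 with DESeq2; medial 16 h 1 against 0 with the stricter filter, only the compared groups or DESeq2. For genotype by time, basal 16 h gave 1 with the multi-aligned share and 4 with only the compared groups, against 2, and medial 8 h gave 0 against 1 with upper-quartile factors or only the compared groups; for region by time in ahk3 ahk4, 16 h gave 1 against 3 with the share outside genes. The cause of these shifts was not tested. Leaving out 1 library gave 1 to 1 (WT basal, 16 h against 8 h), 2 to 5 (WT medial), 4 to 8 (ahk3 ahk4 medial, 16 h against 0 h) and 2 to 6 (16 h against 8 h) over time; 0 to 3, 1 to 2 and 3 to 6 by region in WT at 0, 8 and 16 h and 1 to 4 in ahk3 ahk4 at 16 h; 1 to 2 and 0 to 1 between genotypes in basal segments at 0 and 16 h and 0 to 1, 0 to 2 and 0 to 1 in medial segments at 0, 8 and 16 h; 0 to 1, 1 to 2, 0 to 2 and 1 to 2 for genotype by time (basal 8 and 16 h, medial 8 and 16 h); and 0 to 1 for region by time in WT at 8 h. Over all genes, calls between genotypes in medial segments at 8 h numbered 3 with only the compared groups, 296 with the share outside genes and 1066 with DESeq2, against 448; in medial segments at 16 h 2330, 369 and 1328, against 658; in basal segments at 16 h 143 and 106 with the covariates and 1849 with DESeq2, against 982; in basal segments at 0 h 1327 with only the compared groups and 928 with DESeq2, against 610; and at 8 h 34 and 147, against 58. The covariates gave 5910 and 5867 for ahk3 ahk4 basal segments at 16 h against 0 h, against 9303, and 3437 and 2616 by region in ahk3 ahk4 at 16 h, against 5267.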
